A study of Mus musculus with 6 samples.

Results

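Chromatin accessibility at 10 genes of the bone morphogenetic protein (BMP) pathway was examined in nuclei from whole small intestinal crypts: *Bambi*, *Bmpr1a*, *Bmpr2*, *Smad1*, *Smad5*, *Smad6*, *Smad7*, *Id1*, *Id2* and *Id3*. A peak belonged to a gene when the deposited peak table gave exactly that gene name, which the study assigned to the closest gene within 5 kb. This took 33 of the 123510 MACS peaks, among the 61914 that carry a gene name. The assay was ATAC-seq: a transposase inserts sequencing adapters where DNA is accessible, so reads pile up over open chromatin. The WT group held 3 libraries from wild type mice, and the KO group held 3 libraries from mice in which Cre under the Villin promoter deletes floxed *Smarcad1*, a chromatin remodeler gene. All mice were on the C57BL/6 background, and their ages were not given in the sources used here. The Villin promoter acts in epithelial cells, so any stromal, immune or endothelial nuclei in a whole crypt preparation would keep the floxed exons. The comparison asks whether loss of *Smarcad1* changes accessibility at these genes.

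BMP ligands bind a pair of receptor types at the cell surface, which phosphorylate Smad1 and Smad5. These enter the nucleus with Smad4 and bind regulatory DNA, and *Id1*, *Id2*, *Id3*, *Smad6* and *Smad7* are known direct targets. Smad6 and Smad7 block the signal in the cell, and Bambi is a receptor-like membrane protein without kinase activity that damps it. In the intestine, BMP signals are strongest toward the villus and are held low at the crypt base, where they restrain the stem cells.

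One sequence feature of BMP target genes could be read directly from the peaks. A GC-rich Smad1/5 site (GGCGCC) followed after 5 bases by a Smad4 site (GTCT) is a textbook BMP response element. In the mouse genome (GRCm38.p6), the looser form GGNGCCNNNNNGTCT was found on either strand in 4 of the 33 peaks (12.1%) and in 1.54% of all 123510 peaks. The strict form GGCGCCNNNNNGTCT was found among the 33 in the peaks of *Id2* and *Id3* only, and in 88 of all peaks (0.0712%). The strict and loose forms overlap, since every strict match is also a loose one. The 4 matches are shown with 20 bases on each side and the match in capitals, 5′ to 3′ on the strand that carries it, because they are the letters that the *Id2* and *Id3* peaks share and most peaks lack.
Id3, chr4:136140520-136140574, plus strand: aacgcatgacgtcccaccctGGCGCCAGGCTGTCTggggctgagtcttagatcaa
Id2, chr12:25093024-25093078, minus strand: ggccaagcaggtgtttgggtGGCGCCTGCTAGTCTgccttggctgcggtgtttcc
Smad6, chr9:63968630-63968684, minus strand: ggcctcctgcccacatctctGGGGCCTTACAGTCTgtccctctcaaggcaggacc
Bmpr1a, chr14:34502245-34502299, plus strand: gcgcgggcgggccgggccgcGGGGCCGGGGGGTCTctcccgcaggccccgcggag

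The *Id3* match lies upstream of the gene, the *Id2* match just beyond its 3′ end, and the *Smad6* match in an intron. The *Bmpr1a* match lies within its gene-start peak, which is very GC-rich (66.9% G and C). Each peak was also read against the peaks of its own width. The loose form occurs in 1.23% of the 10575 peaks as wide as the *Id3* peak (900 bp), in 1.49% of the 2485 peaks as wide as the *Id2* and *Bmpr1a* peaks (1800 bp) and in 1.71% of the 20328 peaks as wide as the *Smad6* peak (600 bp). The strict form occurs in 7 of the 10575 peaks of 900 bp and in 5 of the 2485 peaks of 1800 bp. The GGCGCC core alone was found in 9 of the 33 peaks (27.3%) and in 8.93% of all peaks. These shares are not matched for width, and wider peaks hold the core more often. It was found in 6.33% of the peaks of 900 bp, in 27.1% of those of 1800 bp and in 45.5% of those as wide as the *Bambi* peak (2700 bp). Another GC-rich motif, GCCGNCGC, which can overlap the core, was found in 6 of the 33 and in 5.48% of all peaks. It too was more frequent in wide peaks, with 25.8% of the peaks as wide as the *Bmpr2* gene-start peak (1950 bp). This motif had 13 matches in the gene-start peak of *Bmpr2* and 7 in that of *Bmpr1a*. Its matches can overlap one another, so these are not counts of separate sites. Most of the *Bmpr2* matches lie in short runs of overlapping matches, with starts from 59763406 to 59763424 and from 59763741 to 59763753. A match is a description of the letters and no evidence that a factor binds there.

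*Smad6* had the highest WT level per kb of the named gene-start peaks, and its promoter is shown as RefSeq gives it (GRCm38.p6, minus strand, the 250 bases before the start). It is 66.8% G and C, and neither GGCGCC nor GCCGNCGC is in this window, so no letter is capitalised. The whole *Smad6* gene-start peak, which is wider than this window, holds 2 matches of GGCGCC and 2 of GCCGNCGC. GGCGCC is found in 9.59% and GCCGNCGC in 6.89% of the 32851 RefSeq promoters cut in the same way.
Smad6, chr9:64022060-64022309, minus strand: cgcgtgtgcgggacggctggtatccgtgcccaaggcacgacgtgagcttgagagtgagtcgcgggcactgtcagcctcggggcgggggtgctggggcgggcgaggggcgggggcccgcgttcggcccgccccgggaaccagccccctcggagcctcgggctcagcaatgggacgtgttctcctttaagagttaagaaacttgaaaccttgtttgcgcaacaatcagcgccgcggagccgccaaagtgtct

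The libraries differed in depth. The WT libraries held 6180717 to 16301164 reads in peaks and the KO libraries 4339306 to 7721797. Each deposited value is the log2 of a read count that was raised to the depth of the largest library, WT replicate 3. There 1 read counts as 1.00 on the linear scale, whereas 1 read counts as 3.99 in KO replicate 3. Behind a single value of the 33 peaks stand 4 to 1341 reads. The libraries numbered 2 were the lowest of both groups. The scaled linear values over all peaks summed to 0.697 of the WT replicate 3 sum in WT replicate 2 and to 0.679 in KO replicate 2, against 0.838 to 1.06 in the other 3 libraries. None of the 4 peaks over *Smarcad1* lay on the floxed exons 12 to 14, so the deletion could not be checked in these data. The labels call the libraries triplicates without saying that each came from its own mouse, so p-values measure the spread between these libraries, which may be technical.

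The crypt label was read against cell type markers, each list as the log2 of the summed linear values of its peaks. Of 12 epithelial markers 9 had a named peak, and the 32 peaks summed to 13.13–13.57 in WT and 13.04–13.75 in KO. *Epcam*, *Vil1* and *Muc2* had no named peak. Endothelial genes (4 of 4 with a peak, 17 peaks) summed to 10.21–10.40 in WT and 10.13–10.51 in KO. Stromal genes (7 of 8, all but *Des*, 11 peaks) summed to 9.77–10.15 in WT and 9.83–10.29 in KO. The WT and KO ranges overlapped for each of these lists. A share of nuclei in which a site is open and the degree of opening in each nucleus cannot be told apart in such bulk libraries.

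The 33 peaks were spread unevenly over the genes. *Smad1* had 9, *Bmpr1a* and *Smad6* 6 each, *Smad5* 4, *Bmpr2* and *Smad7* 2 each, and *Bambi*, *Id1*, *Id2* and *Id3* 1 each. *Bmpr2*, the longest gene (116 kb), thus had only 2, whereas *Smad1* (61.1 kb) had 9. Gene positions are those of GENCODE vM21 on GRCm38. *Bambi*, *Bmpr1a*, *Bmpr2*, *Smad1*, *Smad5* and *Smad6* each had a named peak over the gene start. No peak lay within 1 kb of the annotated start of *Id1*, *Id2* or *Id3*. The same was true of 8937 of 21938 protein-coding genes (40.7%), of 60.2% of the 4141 coding genes of at most 5 kb, and of 7 of 79 ribosomal protein genes (8.86%). With *Epcam* and *Vil1* also without a peak, a missing peak is no measure of closed chromatin here.

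**Figure D1:**
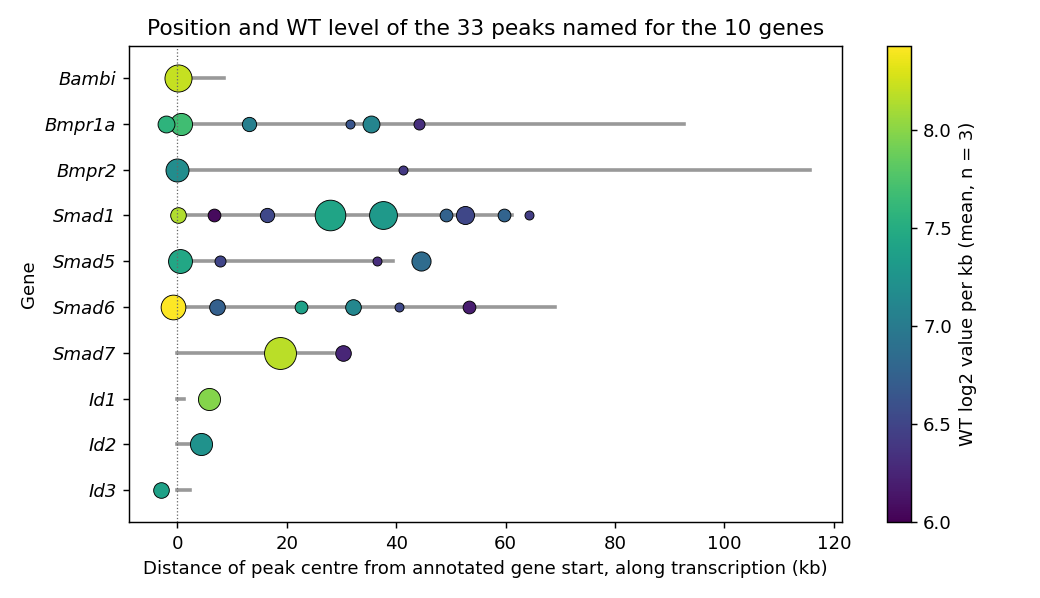
Position of the 33 peaks along each gene. The x axis is the distance of the peak centre from the annotated gene start in kb along transcription, grey lines are the gene bodies, circle area follows peak width, and colour is the mean WT log2 value per kb (n = 3). The 6 genes with a gene-start peak carry it near 0 kb, the *Id* gene peaks lie off their starts, and *Smad1* and *Smad7* hold wide peaks inside the gene.

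To compare genes, the WT level was expressed as the log2 value per kb of peak width (mean ± SD, n = 3). *Smad6* was highest at the gene start with 8.43 ± 0.27, followed by *Bambi* with 8.21 ± 0.62 and *Smad1* with 8.14 ± 0.37. *Bmpr1a* followed with 7.69 ± 0.37, *Smad5* with 7.45 ± 0.39 and *Bmpr2* with 7.18 ± 0.18. The step from *Smad1* to *Bmpr1a* was larger than the SD of either, and each other step between neighbours in this order was smaller than the larger SD of the pair. All genes were read in the same 3 libraries, so these SDs do not tell whether a step holds within each library. Among the 11743 peaks within 1 kb of a protein-coding gene start, *Smad6* stood at the 91.1st percentile, *Bambi* at the 86.0th, *Smad1* at the 83.8th, *Bmpr1a* at the 65.6th, *Smad5* at the 54.0th and *Bmpr2* at the 41.5th. The inhibitor *Smad6*, the pseudoreceptor *Bambi* and the signal transducer *Smad1* were thus high among gene starts in the crypt. The transducer *Smad5* and the type II receptor *Bmpr2* were in the middle. The median of the 33 peaks was 7.04 per kb and that of all peaks 6.43.

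**Figure D2:**
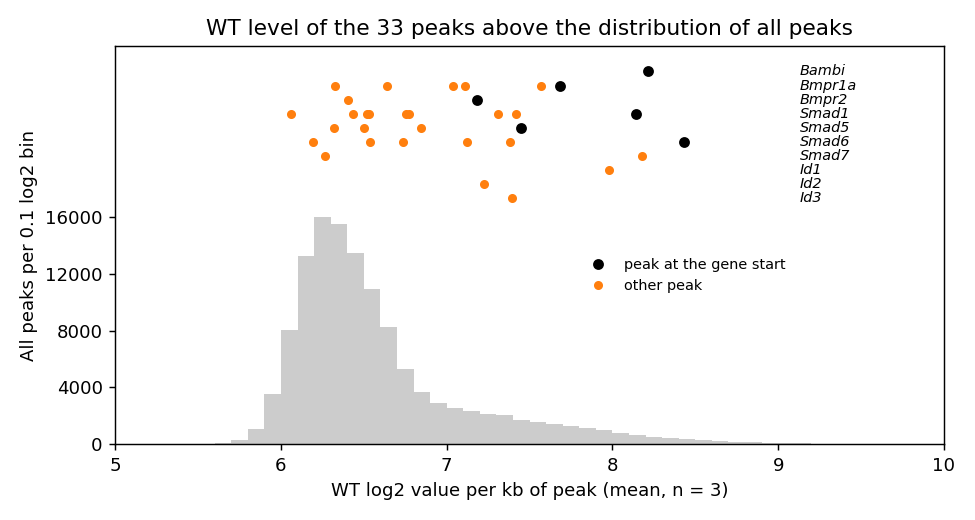
WT level of the 33 peaks (mean log2 value per kb, n = 3, x axis) drawn as points in 1 line per gene above the distribution of all 123510 peaks (grey bars, number of peaks per bin on the y axis). Gene-start peaks (black) lie between 7.18 and 8.43, to the right of most peaks.

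Away from gene starts, several peaks were as strong as the starts. The strongest belonged to *Smad7*, the inhibitor of both BMP and TGF-beta signals. This intronic peak lies on chromosome 18 from 75384451 to 75388200. It is 3750 bp wide, a width that 0.250% of all peaks reach, and had 8.18 ± 0.27 per kb in WT. The *Id1* peak (chromosome 2, 152741101 to 152742900) lies 3.69 kb beyond the 3′ end of the gene and had 7.98 ± 0.46 per kb, more than 96.7% of all peaks. The *Id3* peak (chromosome 4, 136140151 to 136141050) lies 2.45 kb upstream of the gene and had 7.39 ± 0.35. The *Id2* peak (chromosome 12, 25092001 to 25093800) reaches the 3′ end of the gene and had 7.23 ± 0.49. *Smad1* held a pair of wide internal peaks on chromosome 8. The one from 79369951 to 79373400 overlaps a coding exon and had 7.42 ± 0.41 per kb, and the intronic one from 79360501 to 79363350 had 7.31 ± 0.54. The other *Smad1* peaks away from the start ranged from 6.06 to 6.77 per kb.

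Name assignment mattered for a pair of peaks. The peak over the start of *Smad7* (chromosome 18, 75366151 to 75368100) carries the name of the neighbouring *Gm20544*, and a peak 3.58 kb beyond the 3′ end of *Bmpr1a* (chromosome 14, 34406701 to 34407150) carries that of *Mmrn2*. Both fall outside the rule and were described separately. The *Smad7* start peak had 7.70 ± 0.27 per kb in WT, at the 66.4th percentile of gene starts.

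The KO minus WT comparison called none of the 33 peaks. The test was limma's moderated test on all 123510 peaks, two-sided, with Benjamini-Hochberg adjustment over all of them. It also called 0 of all peaks at an adjusted p below 0.05 (0%), and limma voom on recovered reads called 3 of all peaks and none of the 33. The study's own edgeR test, which was not rerun here, did report sites with changed accessibility, mostly increases. The 0 calls therefore belong to the test used here. At an unadjusted p below 0.05, 1123 of all peaks were higher (0.909%) and 1698 lower (1.37%) in KO, and none of the 33 was either. All 3 KO values lay above all 3 WT values in 2.7% of all peaks and below them in 4.1%, and this held for none of the 33. The KO minus WT difference of the 33 had a median of 0.06 on the log2 scale, with 21 above and 12 below 0. This split turned on single libraries, with 13 above and 20 below 0 without WT replicate 2 and 11 above and 22 below 0 without KO replicate 3. All peaks had a median of -0.02, with 46.9% above 0. The differences of the 33 ran from -0.63 to 0.45, with a median SE of 0.34.

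*Bambi* had 1 peak, on chromosome 18 from 3506701 to 3509400, over the gene start and first coding exon (ENSMUSG00000024232, plus strand). Its log2 values were 9.90, 8.94 and 10.10 in WT replicates 1, 2 and 3 and 9.72, 8.92 and 10.38 in KO replicates 1, 2 and 3. The libraries numbered 2 were the lowest in both groups, and the groups overlapped almost wholly. The difference was 0.03 (SE 0.44, 95% confidence interval -0.91 to 0.96), with an unadjusted limma p of 0.953 and an adjusted p of 1.00. On the linear scale the interval of this fit runs from 0.533-fold to 1.95-fold. Its width changed with the scaling: the SE was 0.17 after quantile normalization, at a difference of 0.02, and 0.22 with the total in peaks set equal, at a difference of 0.02. Between 267 and 1098 reads per library stood behind these values.

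**Figure D3:**
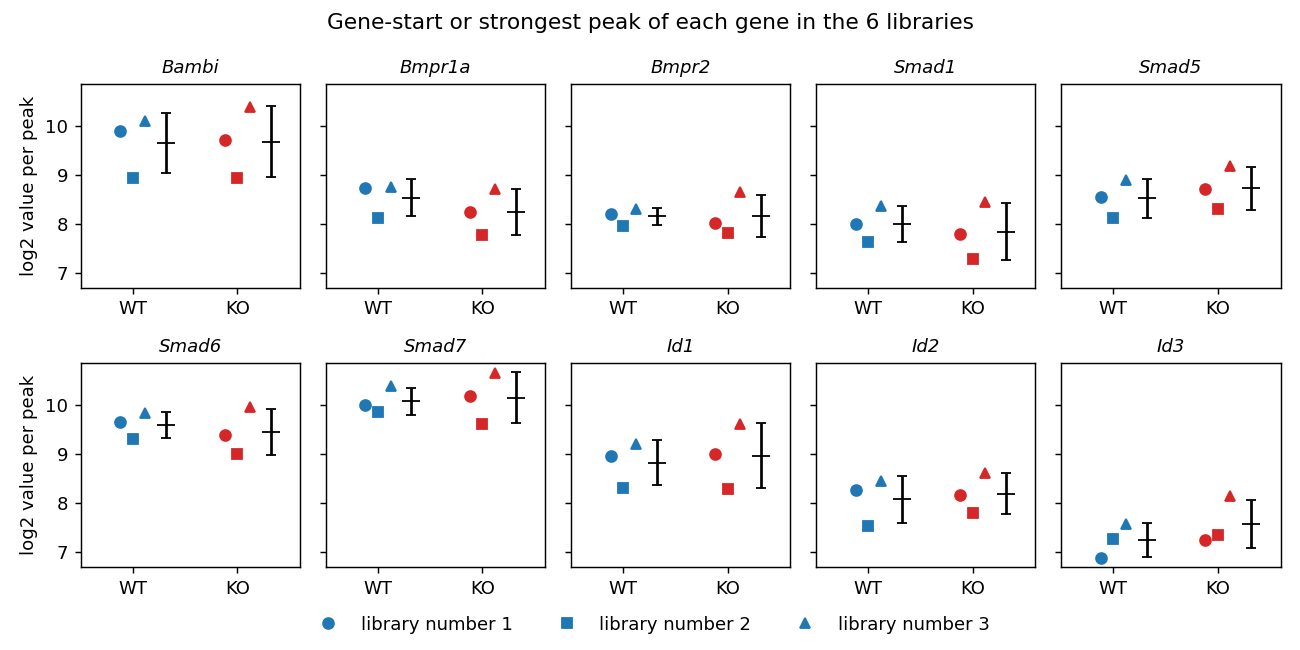
Log2 value (y axis) in each of the 6 libraries for 1 peak per gene, the gene-start peak or, for *Smad7*, *Id1*, *Id2* and *Id3*, the strongest peak. Marker shape gives the library number, and the black bar gives mean ± SD (n = 3). WT and KO points overlap for each gene, and the square (number 2) is lowest in both groups for each gene but *Id3*.

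The libraries numbered 2 were lowest in both groups in 6 of the 6 gene-start peaks and in 17 of the 33 peaks (51.5%). The same was true of 72.2% of all gene-start peaks and of 38.9% of all peaks. Among all peaks at or above the 75th percentile of WT level per kb it was true of 66.2%, and at or above the 90th of 76.7%. This order was thus shared by gene starts and by strong peaks in general. It moves with the lower summed values of these libraries given above, whose part in the differences was not tested. Over the 6 libraries, the gene-start peaks most like that of *Bambi* were those of *Dennd1a*, *Polr3g*, *Arap2*, *Gbe1* and *Amot*, with Pearson r above 0.999 after centring each library on its median. This is a description over libraries that share this order: of the 11517 gene-start peaks compared, 35.7% had an r above 0.9.

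The receptors came next. *Bmpr1a*, a type I BMP receptor, had its gene-start peak on chromosome 14 from 34501801 to 34503600, with 8.73, 8.11 and 8.76 in WT and 8.24, 7.78 and 8.71 in KO. Each KO value was below the WT value of the same number, by 0.05 to 0.49, yet the groups overlapped and the difference of -0.29 (SE 0.34, unadjusted limma p 0.409) was not called. Its peak from 34471651 to 34471950, an intronic peak of 300 bp, had the smallest unadjusted p of the 33 (0.165). The values there were 4.14, 5.40 and 5.17 in WT and 3.71, 4.52 and 4.58 in KO, a difference of -0.63 (SE 0.43). It rests on 6 to 36 reads per library. *Bmpr2*, the type II receptor, had 8.20, 7.95 and 8.29 in WT and 8.02, 7.81 and 8.64 in KO at its start (chromosome 1, 59762401 to 59764350), a difference of 0.01 (SE 0.32). Its other, intronic peak (59804551 to 59804850) stood at 4.67, 4.69 and 4.64 in WT and at 5.29, 4.69 and 4.00 in KO, at 4 to 25 reads per library. The WT values were close together here, and the KO values spread to both sides of them.

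Among the signal transducers, *Smad1* had 7.98, 7.62 and 8.36 in WT and 7.80, 7.27 and 8.44 in KO at its gene-start peak (chromosome 8, 79398901 to 79399800), a difference of -0.15 (SE 0.35). Its smallest unadjusted p (0.297) was in an intron 6.6 kb into the gene (79392601 to 79393200), with 5.06, 4.69 and 6.23 in WT and 5.65, 5.47 and 6.00 in KO. The difference of 0.38 there was 0.83 without WT replicate 3, at an unadjusted p of 0.0225 and an adjusted p of 1.00. Its size thus turned on 1 library. *Smad5* had 8.55, 8.11 and 8.89 in WT and 8.71, 8.29 and 9.18 in KO at its start (chromosome 13, 56702401 to 56704500), with KO above WT by 0.16 to 0.29 at each number. The difference was 0.21 (SE 0.35). The highest difference of the 33 was at its 300 bp peak from 56739451 to 56739750, over the 3′ untranslated part, with 4.67, 5.27 and 3.81 in WT and 5.12, 5.16 and 4.80 in KO. That difference of 0.45 (SE 0.39) was 0.06 without WT replicate 3, 0.79 without WT replicate 2 and 0.86 with limma voom on recovered reads. It rests on 7 to 25 reads per library.

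Of the inhibitors, *Smad6* had 9.66, 9.31 and 9.83 in WT and 9.40, 9.00 and 9.96 in KO at its start (chromosome 9, 64021651 to 64023900), a difference of -0.15 (SE 0.36). Its smallest unadjusted p was 0.420, in an intronic peak of 300 bp from 63981301 to 63981600, with 4.29, 5.40 and 4.70 in WT and 5.29, 5.43 and 4.58 in KO. The intronic *Smad6* peak that holds the motif shown above (63968401 to 63969000) had 5.56, 5.69 and 5.13 in WT and 5.37, 6.04 and 5.58 in KO. *Smad7* had 10.00, 9.86 and 10.39 in WT and 10.20, 9.62 and 10.65 in KO at its wide intronic peak, a difference of 0.07 (SE 0.39). Its weaker peak beyond the 3′ end (chromosome 18, 75397351 to 75398250) had 6.18, 6.37 and 5.78 in WT and 6.17, 6.27 and 6.39 in KO, a difference of 0.17 (SE 0.26). At the peak over its start, which carries another gene's name, the difference was -0.05 (SE 0.35).

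The *Id* genes encode inhibitors of basic helix-loop-helix transcription factors and are standard readouts of BMP signals. The *Id3* peak had 6.88, 7.27 and 7.58 in WT and 7.25, 7.34 and 8.15 in KO. The KO value was above the WT value of the same number in all 3, by 0.07 to 0.57, but the groups overlapped. The difference was 0.34 (SE 0.32, 95% confidence interval -0.35 to 1.02) with an unadjusted p of 0.312 and an adjusted p of 1.00 in limma. *Id1* had 8.97, 8.31 and 9.20 in WT and 9.01, 8.28 and 9.61 in KO, a difference of 0.14 (SE 0.39). *Id2* had 8.26, 7.52 and 8.44 in WT and 8.16, 7.80 and 8.63 in KO, a difference of 0.12 (SE 0.34). Each interval included 0. Without WT replicate 2 the differences were -0.12 for *Id1* and -0.16 for *Id2*, and without KO replicate 3 they were -0.19 and -0.10, so neither kept its sign. The *Id3* difference was 0.05 without KO replicate 3 and 0.16 without WT replicate 1.

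**Figure D4:**
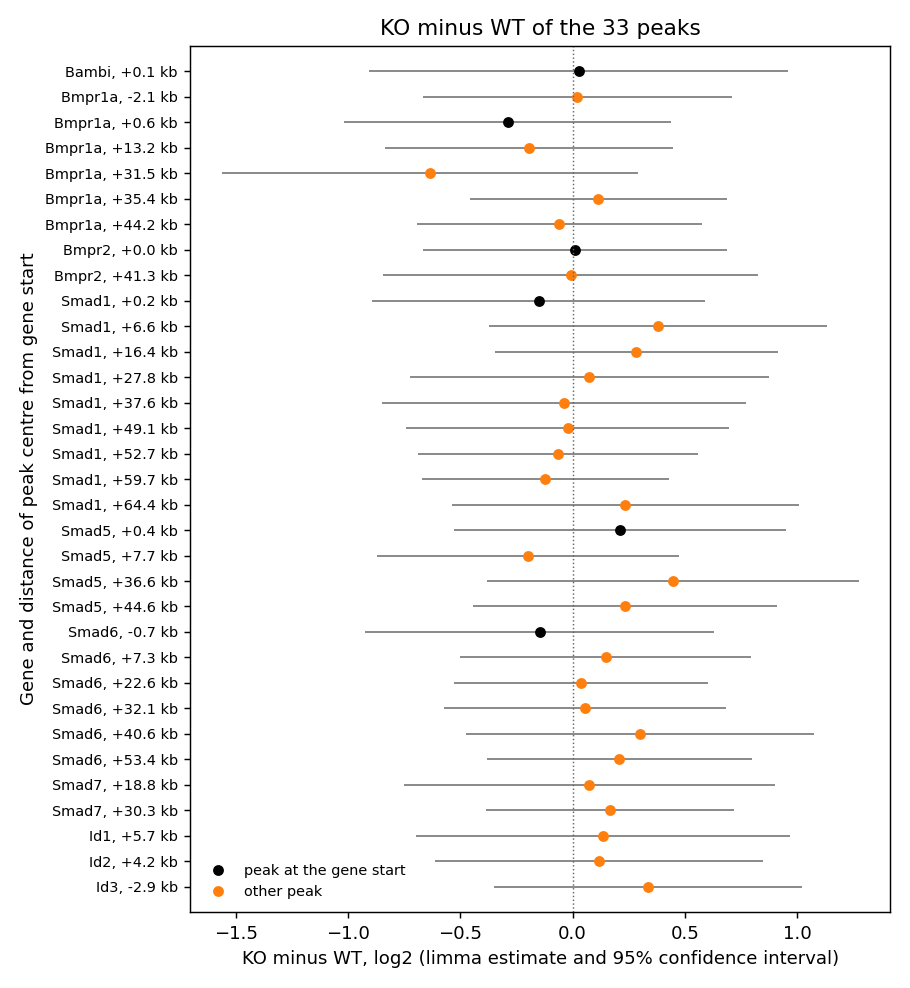
KO minus WT difference (log2, x axis) of each of the 33 peaks, with the limma estimate as a point and its 95% confidence interval as a line, ordered by gene and by distance of the peak from the gene start (y axis). Black points are gene-start peaks. Each interval includes 0, and the estimates lie between -0.63 and 0.45.

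The peaks of each gene were also summed on the linear scale to give 1 value per gene and library. The KO minus WT difference of the log2 sum was highest for *Id3* (0.34, exact two-sided permutation p = 0.5) and *Smad5* (0.20, exact permutation p = 0.5) and lowest for *Bmpr1a* (-0.14, exact permutation p = 0.7). The other 7 genes ran from -0.05 for *Smad6* to 0.14 for *Id1*, with exact permutation p of 0.8 to 1.0. WT and KO sums overlapped for each of the 10 genes in the values as deposited. With 3 libraries against 3 this test cannot go below 0.1. That limit was reached under other scalings. After quantile normalization the exact permutation p was 0.1 for *Bmpr1a* (-0.16) and *Smad5* (0.19). With the total in peaks set equal it was 0.1 for *Bmpr1a* (-0.15), *Smad5* (0.19) and *Smad6* (-0.06). No adjustment over the genes was made. The *Smad5* sum was higher in KO at each of the 3 numbers, as was *Id3*. In each other gene the KO sum was higher at only 1 or 2 numbers. Among the single peaks, the differences at all 3 numbers shared a sign at the starts of *Bmpr1a* and *Smad5* and at the *Id3* peak. The only other such peak was the intronic *Bmpr1a* peak from 34471651 to 34471950. It is not known that the numbers pair the samples, so no conclusion was drawn from these same-number comparisons.

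The rest of the pathway was read from a list of 60 other BMP and TGF-beta genes, of which 54 had a named peak, 233 peaks in all. *Gdf2*, *Bmp10*, *Inhbb*, *Chrd*, *Chrdl1* and *Fst* had none. No peak of the list was called (0% of all peaks were). The median KO minus WT difference was 0.03, with 128 peaks above and 105 below 0. By role, the medians were 0.01 for 32 peaks of ligands, 0.03 for 81 of receptors, 0.08 for 27 of Smads, 0.03 for 67 of inhibitors and -0.03 for 26 of targets. All KO values lay above all WT values in 5 of the 233 peaks and below them in 7, against 2.7% and 4.1% of all peaks. An unadjusted p below 0.05 was found at 2 of the 233 peaks (0.858%) and at 2.28% of all peaks, so the list held no more than the background. These 2 peaks are named after their values were seen. A *Bmp6* peak (chromosome 13, 38434651 to 38435250) had 4.88, 4.88 and 5.46 in WT and 5.88, 5.91 and 5.80 in KO, a difference of 0.79 (SE 0.26, unadjusted limma p 0.00928, adjusted p 1.00). *Bmp6* encodes a BMP ligand, and this weak peak rests on 14 to 44 reads per library and has a lower WT level per kb than nearly all peaks. A *Bmpr1b* peak of 300 bp (chromosome 3, 141888001 to 141888300) had 5.22, 5.27 and 4.86 in WT and 4.29, 4.69 and 3.58 in KO, a difference of -0.93 (SE 0.39, unadjusted limma p 0.0302, adjusted p 1.00). *Bmpr1b* encodes another type I BMP receptor, and the peak rests on 3 to 29 reads per library.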

How the data were processed

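ATAC-seq libraries of small intestinal crypt nuclei from WT and *Smarcad1*-KO mice (3 each, grouped by their titles) were used. Per the study's methods and labels, reads were trimmed with Trim Galore 0.4.1, mapped to GRCm38 with Bowtie2 2.2.5, freed of duplicates, and MACS peaks were called in SeqMonk with default settings, as 1 set for the series. Which libraries were pooled for peak calling, and any shift of reads for the transposase, is not given in the sources used here. The values the authors deposited are log2 read counts per peak, scaled up to the largest library. A second deposited table holds the authors' edgeR comparison with its adjusted p-values and was not used.

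The value of 1 read was recovered from the spacing of the low values (99.97% to 100% of values whole within 0.1 read), and the sum of these reads gave the depth. Reads were counted without molecular identifiers and may repeat a molecule. The main test was limma 3.58.1 in R 4.3.3 (lmFit, eBayes with trend) on the deposited log2 values of all 123510 peaks and 6 libraries, with no filter, pseudocount or covariate and Benjamini-Hochberg adjustment over all peaks. On simulated data, 161 of 200 peaks changed by a log2 of 2 were called (80.5%), with 7 false calls among 123510 peaks. The differences of the 33 peaks were smaller, from -0.63 to 0.45, as were those of the 233 other pathway peaks, from -0.93 to 0.79. The simulation therefore does not tell how often changes of these sizes would be called. Gene sums used the exact two-sided permutation test. For each gene, the peak nearest the start and the peak with the smallest unadjusted p were given in full. Of the other pathway genes, a gene was to be named where its gene-start or strongest peak had an unadjusted p below 0.05. None did, and the 2 named were chosen after their values were seen. Gene positions came from GENCODE vM21, since the orientation labels in the peak table run against the strand, and sequences from RefSeq GRCm38.p6. Promoters of *Bambi*, *Smad7* and *Id1* were not used here. The immune marker list is not reported here. The members and lists were chosen with earlier results of these data known. Alternatives were 2 planned scalings and 1 added after seeing the data, voom, a minimum mean of 20, a pseudocount of 5, a replicate block, each library left out, a threshold of 0.1 and assignment by coordinates.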

Additional observations from a re-analysis of the deposited data

How the results depend on the processing

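None of the 33 peaks was called under any of the 16 alternatives, which included a threshold of 0.1 and assignment by coordinates. The WT levels of the gene-start peaks were recomputed under 7 alternatives (median, quantile, total in peaks, pseudocount and each WT library left out) and moved by less than 1 SD. Leaving out 1 of 3 libraries cannot move their mean by 1 SD, so the leave-one-out part could not have come out otherwise. The count of all peaks called did move, from 0 to 2 with the median of all peaks set equal, to 3 with quantile normalization, with voom on recovered reads and with the total in peaks set equal (a scaling added after seeing the data), and to between 0 and 30 with 1 library left out (30 without KO replicate 2, 1 without WT replicate 3, 0 without each other library). The minimum mean of 20 removed no peak. Both groups are numbered 1 to 3 in the titles. The deviations of same-numbered libraries from their group means correlated at 0.0361, 0.418 and 0.407 for numbers 1, 2 and 3. Libraries of different numbers were not compared in this way, so these values do not settle whether the numbers pair the samples. With a replicate block, 272 of all peaks were called, and 219 with the replicate block and quantile normalization, again none of the 33. The block gave the *Id3* peak an unadjusted limma p of 0.0375 and the *Bmpr1a* start peak 0.0383 (adjusted p 0.685 and 0.689). With the block and quantile normalization, the unadjusted limma p was 0.00989 at the *Bmpr1a* start peak (difference -0.31, adjusted p 0.470). At the *Id3* peak it was 0.0457 (adjusted p 0.650). For *Bambi* the block alone gave the same difference with an SE of 0.13 (95% confidence interval -0.22 to 0.27), and the median SE of the 33 peaks was 0.19. The gene sums kept their values under the block by construction.

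Small differences did not keep their sign: 19 of 140 recomputed gene sums and 51 of the recomputed single-peak differences changed sign, none of them called. The *Bambi* difference ran from -0.33 to 0.40 over the leave-one-out fits. The errors depended on the scaling: with the total in peaks set equal, the SE of *Bambi* was 0.22 and the median SE of the 33 peaks 0.23, against 0.44 and 0.34 in the values as deposited. The cause was not tested.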
